A study of Caenorhabditis elegans with 6 samples.

Results

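NHR-25::GFP binding sites on chromosome II of Caenorhabditis elegans were taken as every site that the combined peak list of the series places on that chromosome, 955 of 6029 sites in all. The list is the authors' merged result of chromatin immunoprecipitation and sequencing (ChIP-seq), in which DNA bound to a tagged protein is collected with an antibody and mapped. Each site was assigned by its midpoint to the left arm (below 4.88 Mb), the centre (4.88 to 12.02 Mb) or the right arm (above 12.02 Mb), in coordinates of the WormBase release WS220. The centre held 613 sites, the right arm 189 and the left arm 153. The same sites were followed by an overlap of at least 1 bp in the peak lists of 3 ChIP replicates.

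All samples came from hermaphrodite worms of strain OP33 at the second larval stage (L2), grown at 20 °C and fixed with 2% formaldehyde. The strain was made by bombardment of unc119(ed3) worms and carries wgIs33, an nhr-25::TY1 EGFP FLAG transgene with unc119 as its marker, and the labels give its outcross count as 0. They describe no other genotype and no worms without the tag. The labels name 3 ChIP samples, collected with antibodies against GFP, and 3 input samples of the chromatin extracts. Input samples were not analysed here, and no level without immunoprecipitation stands beside the values. Whole larvae were used, and the tissue in which a site was bound cannot be read from the lists. The labels do not say whether replicates came from separate cultures, so the spread between them may be technical.

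NHR-25 is a nuclear receptor of the NR5 family, whose members bind DNA as single molecules at a hormone receptor half-site with a short extension on one side. In the worm it is known for its part in the development of the epidermis, in molting, and in the gonad and vulva. The autosomes of this species have a gene-rich centre with little recombination and arms that recombine more and hold more repeats, which is why position along the chromosome was described by these parts.

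The authors' value of each peak was read as an estimated false discovery rate on the −log10 scale, although no header names its unit. Its highest value, the ceiling, is shared by many peaks of a list. In the replicate lists the ceiling, 3.93, 3.73 and 3.92, equals the −log10 of 0.5 over the number of peaks tied there to 2 decimals, which is the ground for this reading. On chromosome II 732 of the 955 sites lay at the ceiling of the combined list (76.6%, exact 95% interval 73.8 to 79.3%; 75.4% over all combined sites). The authors' peak number, which runs from 1 for the first peak of a list, was therefore used for strength within a list. The replicate lists held 30000, 29241 and 30000 peaks in replicates 1, 2 and 3, and under this reading they run to false discovery rates of 0.843, 0.990 and 0.888. The first 6029 peaks of each, as many as the combined list holds, are called its top list. The lists give no read counts, so the depth is unknown here, and intervals cover counting error only. A two-sided exact permutation test that flips the sign of the difference in each of 3 replicates cannot go below p = 0.25, so none of these tests could reach p = 0.05, and the sizes and SDs over replicates are given beside them.

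Sites were densest in the centre of chromosome II, sparser in its right arm and sparsest in its left arm. The centre held 85.9 combined sites per Mb, the right arm 58.0 and the left arm 31.4. The centre thus carried 64.2% of the sites (exact 95% interval 61.1 to 67.2%) on 46.7% of the span, the right arm 19.8% (17.3 to 22.5%) on 21.3%, and the left arm 16.0% (13.7 to 18.5%) on 31.9%.

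Every replicate gave the same order of the 3 parts in its top list. In the centre the top lists of replicates 1, 2 and 3 had 88.5, 92.3 and 86.4 peaks per Mb (mean 89.1 ± 2.98, SD, n = 3). In the right arm they had 60.8, 54.3 and 54.7 (56.6 ± 3.64), and in the left arm 32.6, 33.0 and 28.1 (31.2 ± 2.73). No replicate of one part reached the values of another. The centre was 2.16 ± 0.121 times as dense as both arms together (SD, n = 3; higher in 3 of 3 replicates, exact permutation p = 0.25, the smallest possible). The right arm was 1.82 ± 0.155 times as dense as the left arm (SD, n = 3; higher in 3 of 3 replicates, exact permutation p = 0.25). The centre exceeded the right arm by 32.5 ± 5.15 peaks per Mb and the left arm by 57.9 ± 1.74 (SD, n = 3; higher in 3 of 3 replicates each, exact permutation p = 0.25 each). Benjamini-Hochberg adjustment over these 4 comparisons left each permutation p at 0.25.

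**Figure D1:**
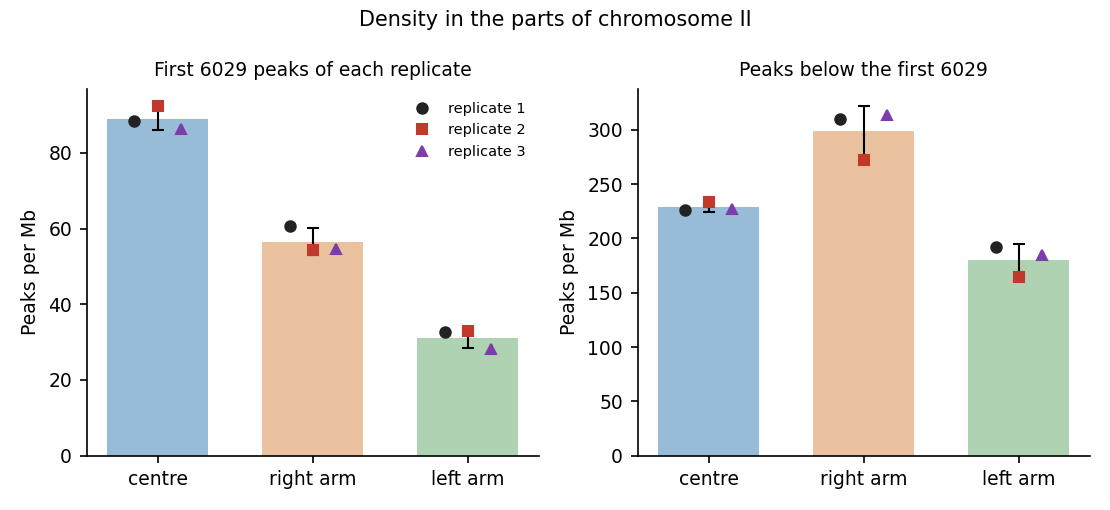
Peaks per Mb in the centre, the right arm and the left arm of chromosome II, for the top lists of the 3 replicates (left panel) and for the peaks below them (right panel); bars are means, error bars are SDs over 3 replicates, and points are single replicates. In the top lists the centre is highest at a mean of 89.1, while below them the right arm is highest at a mean of 299.

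The left arm was not uniform. Its outer 4 Mb held 98 combined sites, 24.5 per Mb, and the last 0.88 Mb before the centre held 55, 62.5 per Mb. The outer stretch had 105, 99 and 91 top peaks in replicates 1, 2 and 3 and the inner stretch 54, 62 and 46. On average the inner stretch was therefore near the density of the right arm, but it was itself uneven. It had no combined site between 4152041 and 4294160 or between 4402281 and 4547185. A 30-kb window of 8 regions began at 4547185 and one of 12 regions at 4740076. The outer 4 Mb were sparser than the inner stretch, but sparse ground also reached past 4 Mb. In 1-Mb bins, the first bin held 38 combined sites and the next 3 held 16, 23 and 21. The bin from 1 to 2 Mb was the sparsest full bin of the chromosome, with 16, 19 and 15 top peaks in replicates 1, 2 and 3.

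The centre and the right arm were more even. The 6 bins from 5 to 11 Mb held between 76 and 90 combined sites each, and the bin from 11 to 12 Mb held 103, the most on the chromosome. Replicates 1, 2 and 3 had 103, 100 and 92 top peaks in that bin. The bin from 8 to 9 Mb held 90 combined sites and 100, 109 and 98 top peaks. Just beyond 12 Mb the count was 53 combined sites, followed by 58 and 62, and the last 0.277 Mb held 17. The step at the second boundary thus lay between neighbouring bins. The first boundary fell inside the bin from 4 to 5 Mb, which held 66 combined sites, and 1-Mb bins cannot place the rise within it. In that bin no combined site lay between 4402281 and 4547185, so the rise was not a steady one from 4 Mb.

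At a finer scale, no 100-kb bin of the centre was empty. The centre had 71 such bins with a median of 8 sites and a range from 1 to 31. The right arm had 32 bins with a median of 6 sites, of which 1 was empty, and the left arm had 48 bins with a median of 2 sites, of which 13 were empty (27.1%). One 100-kb bin of the left arm held 20 sites.

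The order of the parts depended on how far down the replicate lists peaks were counted. In steps of 6029 peak numbers, the centre had 89.1 ± 2.98, 71.1 ± 2.51, 58.7 ± 2.12 and 52.5 ± 4.31 peaks per Mb from the first step to the fourth (SD, n = 3). The right arm had 56.6 ± 3.64, 66.4 ± 4.62, 75.3 ± 8.39 and 80.1 ± 0.921, and the left arm 31.2 ± 2.73, 38.5 ± 2.17, 47.1 ± 4.03 and 48.5 ± 4.21. From the third step on, the right arm was denser than the centre in all 3 replicates. The numbers past 24116 made no full step in any list and were left out of these values.

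Below the top lists the centre had 229 ± 4.13 peaks per Mb, the right arm 299 ± 22.7 and the left arm 180 ± 14.2 (SD, n = 3). There the centre was 0.770 ± 0.0756 times as dense as the right arm (lower in 3 of 3 replicates, exact permutation p = 0.25, adjusted p = 0.333 over 4 comparisons) and 1.01 ± 0.0996 times as dense as both arms together (higher in 1 of 3 replicates, exact permutation p = 1). The right arm remained denser than the left arm, by 1.66 ± 0.0397 times (higher in 3 of 3 replicates, exact permutation p = 0.25, adjusted p = 0.333). The excess of the right arm over the left was thus present both in the top lists and below them, and that of the centre over the right arm was not. At numbers 12059 to 18087 the median of the authors' value on chromosome II was 0.398, 0.363 and 0.382 in replicates 1, 2 and 3, far below the ceiling.

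**Figure D2:**
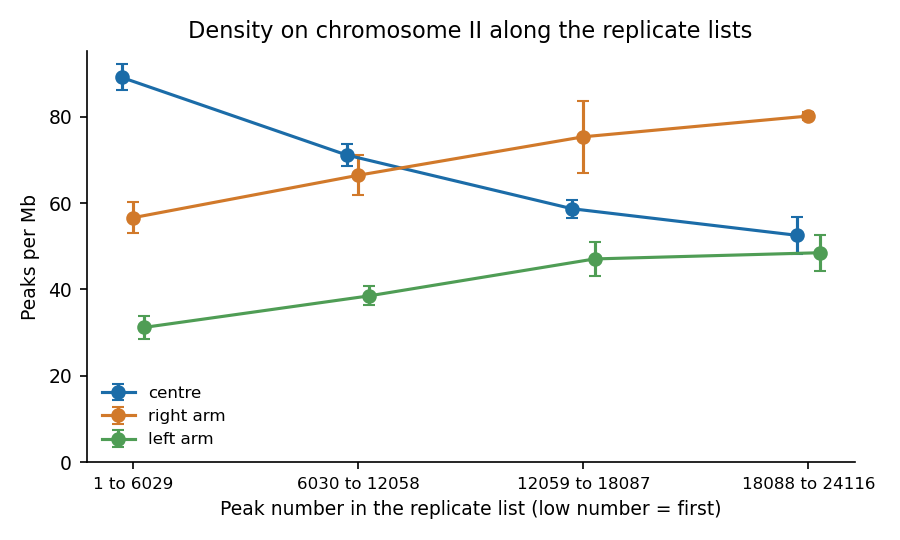
Peaks per Mb in the 3 parts of chromosome II for successive steps of 6029 peak numbers in the replicate lists; points are means and error bars SDs over 3 replicates. The centre goes down along the list to 52.5 in the last step shown, and the right arm goes up to 80.1.

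Chromosome II took part in every step of the combined list. It held 162 of the first 1000 combined peaks (16.2%, exact 95% interval 14.0 to 18.6%). Of chromosome II's own sites these were 17.0%, against 16.6% over all combined sites. In the following steps of 1000 numbers it held 16.5, 16.0, 16.7 and 14.0% (11.9 to 16.3% in the last of these), and among the last 1029 it held 161 (15.6%, 13.5 to 18.0%). The first 1000 included 99 sites of the centre, 38 of the right arm and 25 of the left arm, which is 13.9, 11.7 and 5.12 per Mb. Over the 6 steps the density of the centre was 1.19, 1.99, 1.74, 1.21, 2.17 and 1.12 times that of the right arm, with no trend along the list.

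In the top lists chromosome II was close to chromosome I in its overall density and between chromosomes III and IV. It had 63.7 ± 2.32 peaks per Mb, against 63.3 ± 0.778 on I, 70.5 ± 1.38 on III, 52.7 ± 1.28 on IV, 47.4 ± 0.266 on V and 68.1 ± 1.04 on X (SD, n = 3). Against the 4 other autosomes together the ratio was 1.12 ± 0.0499 (SD, n = 3; higher in 3 of 3 replicates, exact permutation p = 0.25, adjusted p = 0.3 over 6 comparisons). In the full lists this direction turned, with 292 ± 6.46 peaks per Mb on II against 301 ± 6.76 on the other autosomes (SD, n = 3), a ratio of 0.971 ± 0.00764 (lower in 3 of 3 replicates, exact permutation p = 0.25, adjusted p = 0.375). In the full lists the ratio of II was 0.873 ± 0.0133 to I, 0.777 ± 0.00211 to III, 0.999 ± 0.0207 to IV, 1.25 ± 0.0150 to V and 1.03 ± 0.0466 to X (SD, n = 3).

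By the outer 25% of the length at each end, the contrast between its ends set chromosome II apart more than its density did. These ends were used in place of the boundaries above to compare chromosomes alike, and on II they did not match the arms. The right end held 256 combined sites against 189 in the right arm, and the left end 91 against 153 in the left arm. With the arm boundaries the right to left ratio of II was 1.82 ± 0.155 (SD, n = 3), so its size depended on the cut. No arm boundaries were used for the other chromosomes. On II the right end had 64.8 ± 3.17 top peaks per Mb and the left end 23.5 ± 1.18 (SD, n = 3), a ratio of 2.76 ± 0.0523. The same ratio was 1.84 ± 0.120 on III, 1.27 ± 0.0343 on X, 0.857 ± 0.0470 on I, 0.645 ± 0.0580 on V and 0.638 ± 0.0160 on IV. The ratio of II exceeded that of III, its nearest neighbour, by 0.921 ± 0.172 (SD, n = 3; higher in 3 of 3 replicates, exact permutation p = 0.25, Benjamini-Hochberg adjusted p = 0.25 over 5 such comparisons, which all gave this p). The left end of II was below that of every other chromosome in mean density, the nearest being V with 30.2 ± 1.32, while the right end of V, at 19.4 ± 0.943, was lower still.

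The first few sites of chromosome II in the combined list lay mostly in its centre, which holds 64.2% of all its sites. The first was at 10563335 to 10563708, number 2 of the combined list, and was number 2, 3 and 4 in replicates 1, 2 and 3. The next, at 8561184 to 8561590, had combined number 8 and numbers 7, 9 and 17. Both were placed by every replicate within 15.5 bp of the combined midpoint. The third, at 5844563 to 5845193, had combined number 30 but numbers 33, 67 and 11, a wider spread, and its midpoint in replicate 2 lay 98 bp to the left. This interval is 631 bp wide and listed again under combined number 167, so its midpoint need not be that of a single peak. The site at 8184964 to 8185329 had combined number 33 and numbers 52, 30 and 29.

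Of the 10 lowest combined numbers on the chromosome, 9 were in the centre and 1 in the left arm. Among its 162 sites in the first 1000 combined peaks the centre's share was 61.1%, near its 64.2% of all sites. The other 5 of the centre had combined numbers 75, 80, 85, 86 and 88. They lay at 6588831 to 6589252, 9603357 to 9603771, 10541824 to 10542812, 10868745 to 10869067 and 8016732 to 8017141. In the replicates they were numbered between 40 and 180. The one at 10541824 is 989 bp wide and listed for 2 combined sites, and the replicate midpoints lay 131, 212.5 and 217.5 bp to its left. These sites were picked by their combined number, which was itself made from these libraries, so their early places in the replicates are a description.

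**Figure D3:**
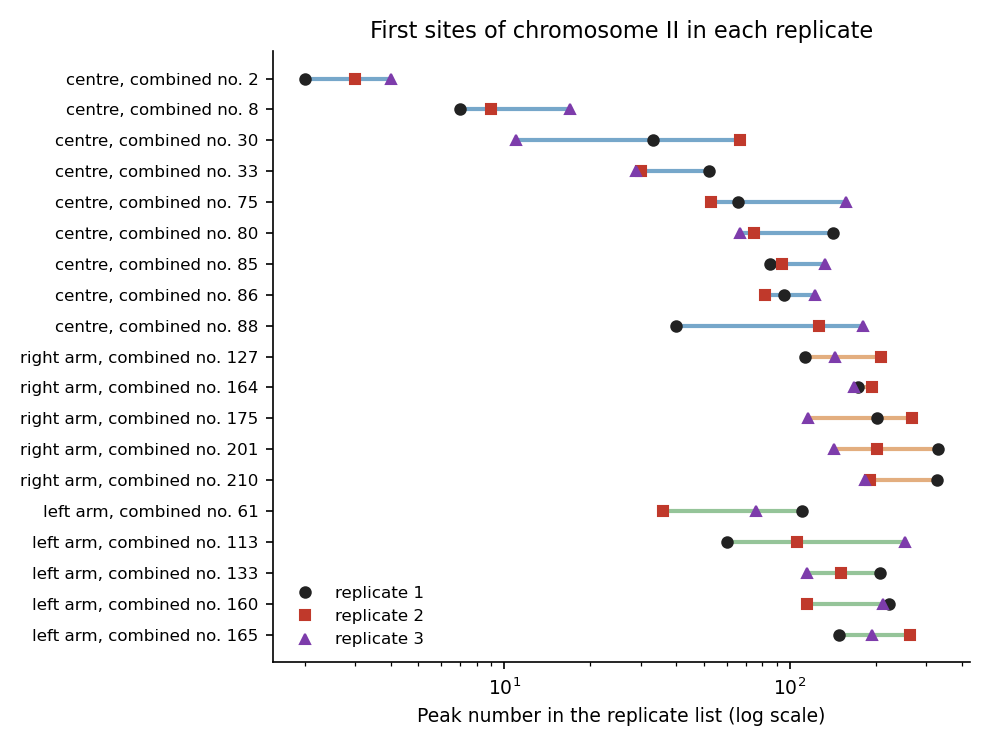
Peak number in each replicate list, on a log scale, of the sites with the lowest combined numbers: 9 of the centre, 5 of the right arm and 5 of the left arm; each row is 1 site, symbols are replicates and the line spans them. The first 2 sites of the centre stay below number 18 in every replicate, and all 19 sites stay at or below number 330.

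The lowest combined numbers of the right arm were higher than those of the centre, but it holds 189 sites against 613. Its share among the first 1000 combined peaks was 20.1% (exact interval 14.6 to 26.5%), against 16.2% (13.3 to 19.3%) in the centre. These intervals overlap. Among the first 1000 peaks of every replicate the shares were 13.2 and 11.1%. The median combined number went the other way, 3027 against 2854. The first site of the right arm was at 14251287 to 14251930, combined number 127, and was number 113, 208 and 144 in replicates 1, 2 and 3. It was followed by 14059755 to 14060049, combined number 164, with numbers 173, 193 and 168, the most even of these sites. The third, at 13291323 to 13291876, had combined number 175 and numbers 202, 268 and 116. The sites at 15025747 to 15026047 and 14404982 to 14405436 had combined numbers 201 and 210. All 5 lay beyond 13 Mb, and none in the first Mb of the arm.

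The left arm, although sparse, held the fifth site of the whole chromosome. This site, at 1320448 to 1320803, had combined number 61 and was number 110, 36 and 76 in replicates 1, 2 and 3. In the combined list its nearest neighbour lay 73.5 kb to the left, and none followed for 499 kb to the right. That gap to the right held 3, 3 and 2 top peaks in replicates 1, 2 and 3, and 59, 35 and 61 peaks in their full lists. The next, at 2973888 to 2974270, had combined number 113 and numbers 60, 106 and 252. The other 3, with combined numbers 133, 160 and 165, lay at 4851671 to 4851972, 4376666 to 4377035 and 216630 to 216922. Among all 19 sites shown for the 3 parts, the one at 1320448 was the most isolated in the combined list. The next, at 8184964 in the centre, had a neighbour 31.4 kb away.

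The replicates recovered the sites of chromosome II at about the share found over all sites. Of its 955 sites, 544 overlapped a top peak in every replicate (57.0%, exact 95% interval 53.8 to 60.1%), against 56.9% over all combined sites. The sites themselves come from these libraries, so the shares are no independent evidence of binding. With the full lists, 923 of 955 (96.6%) had a peak in every replicate, against 96.0% over all combined sites, and the other 32 had one in 2 replicates. A ceiling peak in every replicate was found for 346 sites (36.2%, against 35.4% over all). Among the first 1000 peaks of every replicate were 112 sites of chromosome II (11.7%, against 11.9% over all), of which 68 were in the centre, 25 in the right arm and 19 in the left arm.

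By part, the share in every top list was 57.7% in the centre (354 of 613; exact 95% interval 53.7 to 61.7%), 58.7% in the right arm (111 of 189; 51.4 to 65.8%) and 51.6% in the left arm (79 of 153; 43.4 to 59.8%). The centre exceeded the left arm by 6.11 percentage points, with a Newcombe 95% interval from -2.61 to 14.9, and differed from the right arm by -0.981 points (-8.82 to 7.12). Differences of these sizes were not detectable with these numbers of sites. The single replicates contained 82.4, 79.3 and 77.7% of the centre's sites, 84.7, 76.2 and 76.7% of the right arm's and 78.4, 77.8 and 71.9% of the left arm's, for replicates 1, 2 and 3. Replicate 3 thus gave the lowest share in the left arm and in the centre, and replicate 1 the highest share in all 3 parts.

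How often a site was recovered followed its combined number, as it did in the series as a whole. In successive steps of 1000 combined numbers, the share of chromosome II sites in every top list was 100, 97.0, 76.2, 37.1, 17.1 and 8.70%, against 100, 98.0, 79.4, 41.1, 15.3 and 8.84% over all combined sites. The parts had no fixed order within these steps. The left arm's share was above that of the centre at 1001 to 2000, 3001 to 4000 and 5001 to 6029, and below it at 2001 to 3000 and 4001 to 5000, on 20 to 30 left arm sites each. The median combined number was 2854 in the centre, 3027 in the right arm and 3282 in the left arm, against 3015 over all combined sites.

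The left arm's sites also stood further down in the replicates. The median number of the matching replicate peak was 2728, 2763 and 2797 for the centre in replicates 1, 2 and 3, 2829, 3104 and 3077 for the right arm, and 3436, 3323 and 3847 for the left arm. Left arm medians were above those of the other parts in each replicate. Spearman's rho of the peak number between replicates, a description across sites that share libraries, was lowest in the left arm for the pairs with replicate 3. It was 0.691, 0.601 and 0.589 there for replicates 1 and 2, 1 and 3, and 2 and 3 (149 sites each). In the centre it was 0.674, 0.667 and 0.676 (594 to 603 sites) and in the right arm 0.694, 0.705 and 0.746 (184 to 187 sites).

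For the typical site the highest replicate number was 2.43 times the lowest (interquartile range 1.79 to 3.53, 923 sites matched in every full list). Over all combined sites the median was 2.33. Single sites differed far more. Among sites with combined numbers up to 3000, the widest spread was at 1819904 to 1820343 in the left arm, combined number 2738, which was number 2779, 1421 and 18541 in replicates 1, 2 and 3. It is the only combined site between the 2 longest gaps of the chromosome. Next in the left arm came 2971822 to 2971978, numbered 3236, 837 and 8221.

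In the centre the widest spread was at 9620503 to 9620942, numbered 2016, 16373 and 1311, and next at 11632574 to 11633013, numbered 13056, 2095 and 1117. In the right arm it was at 12768422 to 12768536, numbered 2315, 15726 and 1843, and next at 12222414 to 12222853, numbered 6519, 845 and 1995. All 6 had combined numbers between 1976 and 2773 and lay at the ceiling of the combined list, so a ceiling value in that list does not mean that each replicate placed the site early.

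The 955 sites formed 905 separate regions, since 98 sites overlapped another and made up 48 regions. Sites of such a region can match the same replicate peak, as 96, 96 and 100 sites did in replicates 1, 2 and 3. Regions of the centre, the densest part, lay closer together than those of the arms. Closeness beyond that which density alone gives was not tested. Another region's midpoint was within 2000 bp for 47.6% of 576 regions in the centre (exact 95% interval 43.4 to 51.7%), 40.2% of 179 in the right arm (33.0 to 47.8%) and 34.7% of 150 in the left arm (27.1 to 42.9%). In the top lists the shares were 47.8 ± 2.78, 39.5 ± 7.25 and 32.8 ± 6.47% (SD, n = 3). Over the whole chromosome the share was 44.0% (40.7 to 47.3%), against 41.9% (40.5 to 43.3%) on the other chromosomes. The median distance to the nearest region was 2280 bp in the centre, 3110.5 bp in the right arm and 3532 bp in the left arm.

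No difference in strength between crowded and isolated regions was detectable. Regions with a neighbour within 2 kb included 18.3% with a peak among the first 1000 combined peaks (exact 95% interval 14.7 to 22.5%), those with the nearest at 2 to 10 kb 16.6% (12.9 to 20.8%), and those with none within 10 kb 16.5% (10.8 to 23.8%). The intervals overlap throughout. In the left arm the shares were 9.62% of 52 regions, 21.3% of 61 and 18.9% of 37.

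The densest 30-kb window of the chromosome lay in the centre, from 6821204 to 6849605, with 23 regions and 25 sites. Of these sites 17 were in every top list and 5 among the first 1000 combined peaks. By combined number, 289 and 334, the strongest stood at its edges. The first site of the window, at 6821204 to 6821520, was number 261, 211 and 657 in replicates 1, 2 and 3, and the last, at 6849302 to 6849605, was number 221, 363 and 656. Sites at 6842627 to 6842973 and 6848051 to 6848396 had combined numbers 585 and 514. In replicate 3 they were numbers 540 and 625, ahead of both edge sites. The weakest, at 6832564 to 6833003, had combined number 5142 and was number 3709, 8408 and 16552, in the top list of replicate 1 only.

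**Figure D4:**
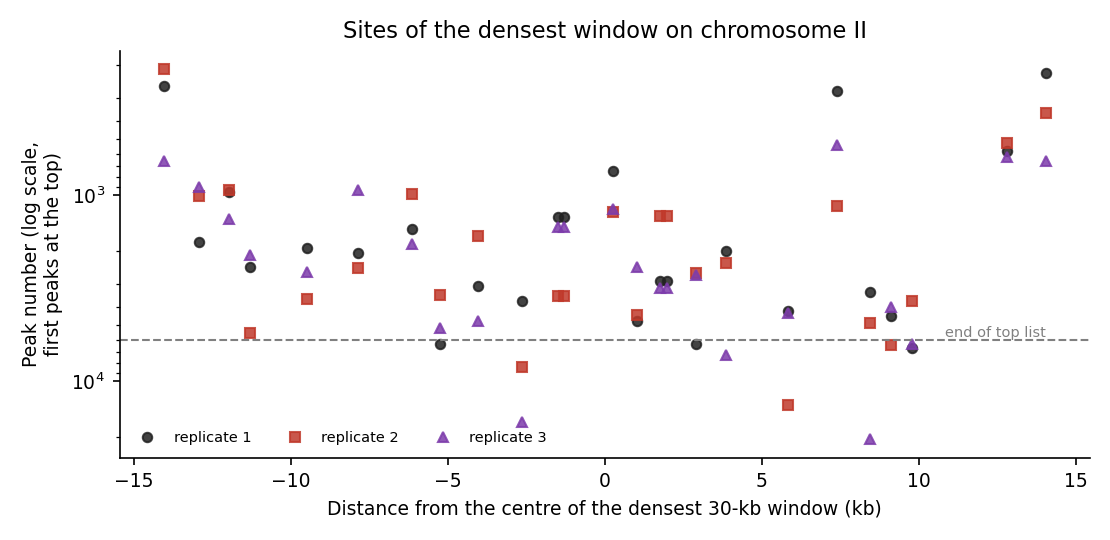
Peak number in each replicate, on a log scale with the first peaks at the top, of the 25 sites of the densest 30-kb window against their distance from its centre in kb; the dashed line marks the end of the top list at number 6029. The first and last sites have numbers of at most 657 and 656, and 17 of 25 sites are above the line in all 3 replicates.

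The next window of the centre, from 10537971 to 10563708, combined density and strength. It held 14 regions with 17 sites, 7 of them among the first 1000 combined peaks and 15 in every top list, and it ends with the first site of the chromosome. The median combined number of its sites was 1308, against 2830 in the densest window. Another, from 11617710 to 11646656, had 14 regions and a best combined number of 191.

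The densest windows of the arms were smaller. In the right arm 9 regions lay from 12981878 to 13008020, with 5, 8 and 7 regions in the top lists of replicates 1, 2 and 3, and its best site had combined number 1791. A sparser window of that arm, from 13447706 to 13477563, had 7 regions and 4 of its sites were among the first 1000 combined peaks. In the left arm 12 regions lay from 4740076 to 4769596, with 12, 13 and 9 in the top lists, and 11 of its 14 sites were in every top list. A window at the left tip, from 583 to 28767, had 7 regions. The best window of the left arm lay within its last 0.88 Mb, the denser stretch described above.

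Gaps over 200 kb were found only in the left arm. It had 10 stretches over 100 kb without a combined site, 7 of them over 200 kb, while the right arm had 6 over 100 kb and the centre none. The median gap was 3.99 kb in the centre, 6.20 kb in the right arm and 7.87 kb in the left arm. The third longest gap of the left arm ran from 3555771 to 3808233, 252 kb, with 1 top peak in each replicate and 13, 15 and 7 peaks in their full lists. The longest of the right arm ran from 12459717 to 12587881, 128 kb, and the longest of the centre from 6078580 to 6173370, 94.8 kb. The gap of the right arm from 14673990 to 14794912, 121 kb, had no top peak in any replicate but 33, 19 and 26 peaks in the full lists, so full lists fill stretches that the combined list leaves empty.

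Broad regions were few. Regions of at least 1000 bp numbered 3 of 905 on chromosome II, of 14 in the series. By site these were 8 of 955 on II, against 34 of 6029 over all combined sites. All 3 lay in the centre, which holds 576 of the 905 regions, and 3 are too few to tell the parts apart. The widest region measured 736 bp in the right arm and 645 bp in the left arm. The widest, from 8418694 to 8421639, is 1 interval of 2946 bp listed for 4 sites. In replicates 1, 2 and 3 its widest intervals were 1220, 1517 and 1457 bp. The second, from 9169837 to 9172214, was 1 interval of 2315 bp in replicate 1 but 5 and 4 intervals of at most 502 and 605 bp in replicates 2 and 3. The third, from 8746962 to 8747992, had combined number 197 and replicate numbers 140, 359 and 166. Of all 955 sites 63.8% were exactly 440 bp wide, against 66.2% over all combined sites.

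At the boundaries, the last site of the left arm was at 4876048 to 4876487, combined number 4756, with no matching peak in replicate 1 and numbers 2922 and 3872 in replicates 2 and 3. The first of the centre was at 4881701 to 4882140, combined number 1803. The last of the centre was at 12006751 to 12006863, combined number 2280, and the first of the right arm at 12036261 to 12036700, combined number 5066. The outermost sites of the chromosome were at 583 to 1022 and at 15266436 to 15266875, combined numbers 5236 and 2305.

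Some top peaks of the replicates on chromosome II have no counterpart in the combined list. They numbered 209 of 989 in replicate 1 (21.1%), 239 of 997 in replicate 2 (24.0%) and 185 of 932 in replicate 3 (19.8%). Over all nuclear chromosomes the shares were 19.3, 20.9 and 20.4%. Their median numbers on chromosome II were 4783, 4661 and 4595, late in the top lists. Of them 20, 22 and 21 overlapped a top peak of both other replicates, and the earliest were numbers 1104, 537 and 765. In the left arm they made up 24.5, 26.1 and 18.2% of the top peaks, in the centre 20.4, 25.3 and 20.7%, and in the right arm 20.7, 16.9 and 18.0%.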

How the data were processed

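Peak lists of 3 ChIP replicates and the combined list were used. Per the file headers, coordinates are on WormBase WS220, and each row credits SPP, a peak caller, with IDR (irreproducible discovery rate). Alignment, filtering, controls and how replicates were merged are not given in the sources used. The deposited value of a peak was read from the values as the −log10 of an estimated false discovery rate, which no header states, and was used only within a list. Peaks were ranked by the authors' peak number, and a site took the lowest-numbered peak overlapping it by at least 1 bp. The boundaries of the parts were given with the choice of the sites. The length of a chromosome was the last base any deposited peak reached (15277082 on II).

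Densities were compared by exact two-sided sign-flip permutation tests over 3 replicates, and shares carry exact Clopper-Pearson intervals. Python 3.11.15, numpy 2.4.6, pandas 2.3.3, scipy 1.17.1 and statsmodels 0.14.6 were used. Overlap and density counting was tested on simulated data. Named sites were the 10 lowest combined numbers, the 5 lowest of each arm, the 2 of each part with the widest spread of replicate numbers up to combined number 3000, the densest windows, longest gaps, 3 widest regions and the sites at the boundaries; windows and gaps beyond the first of a part, the sites named within the densest window, the outermost sites and the zones of the left arm were chosen after their values were seen. The sites, parts and comparisons were chosen with earlier results of these data known. The gene table used here is on WBcel235, so no gene or sequence is given for a site. Alternatives were other lists, boundaries, overlaps, distances and replicates left out.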

Additional observations from a re-analysis of the deposited data

How the results depend on the processing

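Of 45 alternatives over 6 results, 26 stayed within the spread between replicates or the interval of the value, 17 moved by more and 2 turned the direction; 6 of the 45, which use the combined list or only the peaks below the top lists, were chosen after seeing the data. The ratio of centre to arms, 2.16, was 1.19 with the full replicate lists, 1.01 with the peaks below the top lists, 2.33 with the first 3014 peaks of each list, 2.32 with the peaks at the ceiling and 1.89 with the central 50% of the chromosome. The ratio of right to left arm, 1.82, was 2.05 with the first 3014 peaks, 2.76 with the outer 25% at each end and 1.66 with the peaks below the top lists. The ratio of chromosome II to the other autosomes, 1.12, turned to 0.971 with the full lists and 0.937 below the top lists; the cause was not tested. With 1 replicate left out these ratios ranged from 2.12 to 2.23, 1.76 to 1.91 and 1.10 to 1.14. The share of sites in every top list was 33.3% with a reciprocal overlap of 50%, 96.6% with the full lists, 91.2% in the first 3014 combined peaks, and 64.4 to 66.4% in both others with 1 replicate left out, which asks for fewer lists. The difference between centre and left arm in that share, 6.11 points, ranged from 0.496 to 7.74. Regions with a neighbour were 18.0% within 1000 bp, 68.8% within 5000 bp and 28.7% in the first 3014 peaks. On the other chromosomes the shares in the combined list were 15.4% within 1000 bp and 69.2% within 5000 bp. No paired analysis was possible because the inputs with the same replicate numbers have no list used here; this concerns ChIP against input, while the permutation tests pair values within each ChIP replicate. Without read counts, and with many values tied, order within a list rests on the authors' peak number.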
